A study of Homo sapiens with 3 samples.

Results

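Cytochromes P450, UDP-glucuronosyltransferases (UGTs), cytosolic sulfotransferases, further conjugating and hydrolysing enzymes, and the receptors that govern their genes were compared in a drug-resistance model of liver cancer. The 52 genes were taken from a list of these families that was chosen with earlier results of these data known. Counts among them are therefore descriptions only. A probe set annotated to a single gene was found for 45 of them, among 19775 genes named on the array. The other 7, CYP2C18, CYP2C19, CYP3A7, UGT2B7, UGT2B10, SULT1A2 and NR1I2, were not analysed here.

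The samples were a doxorubicin-resistant subline (MHCC97L/DoxR, DoxR in short), a cisplatin-resistant subline (MHCC97L/CisR, CisR in short) and their parental line MHCC97Low, an established human metastatic hepatocellular carcinoma cell line. Each was measured once on an Affymetrix U133 Plus 2.0 array, and all were grown without treatment per the labels. No drug dose, selection time or clonal origin of the sublines was used here. The series' design sets each subline against the parental line to find genes linked to resistance to its drug.

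Phase I enzymes such as P450s oxidise lipophilic compounds, using electrons from the reductase POR, and phase II enzymes attach a glucuronide, a sulfate or an acetyl group to the products so that they can be excreted. In liver, the aryl hydrocarbon receptor AHR with its partner ARNT, the constitutive androstane receptor NR1I3, the pregnane receptor NR1I2 and the vitamin D receptor VDR, several of them paired with the retinoid receptor RXRA, switch on genes of these enzymes. Other P450s make bile acids or turn over vitamin D, retinoic acid and fatty acids.

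Signals are MAS5 values on a linear scale, and a value under 76.9, the median over all arrays, was treated as lying at a floor below which the order of values is not usable. Where a gene had several probe sets, the one with the highest mean signal stood for it. Log2 differences were taken after raising values to the floor. Genes 2-fold or more apart were called higher or lower, and "at least" marks a fold with its dimmer side at the floor. With 1 array per line there was no replicate and no test was possible, so no difference could be compared with the variation between cultures, and the small number of arrays limits the precision of each value. As a measure of spread over all compared genes, the median absolute deviation of the log2 difference, scaled to an SD, was 0.37 for either subline against parental and 0.39 between the sublines. With genes split by signal into 3 groups of equal size, it was 0.49 for the dimmest and 0.28 for the brightest group in the DoxR comparison. In RNA of a whole culture, fewer expressing cells and less RNA per cell cannot be told apart.

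The promoters of 3 genes with contrasting signals are shown, because CYP1A1 and UGT1A6 are textbook AHR targets and CYP2B6 is a textbook NR1I3 target. They are RefSeq sequences of build GRCh38.p14, each covering the 250 bases before the annotated gene start, read 5′ to 3′ on the gene's strand, with the AHR core motif GCGTG in capitals. They lie at chr15:74725529-74725778 on the minus strand for CYP1A1, chr2:233691452-233691701 on the plus strand for the first of the UGT1A6 starts, and chr19:40991032-40991281 on the plus strand for CYP2B6.
CYP1A1: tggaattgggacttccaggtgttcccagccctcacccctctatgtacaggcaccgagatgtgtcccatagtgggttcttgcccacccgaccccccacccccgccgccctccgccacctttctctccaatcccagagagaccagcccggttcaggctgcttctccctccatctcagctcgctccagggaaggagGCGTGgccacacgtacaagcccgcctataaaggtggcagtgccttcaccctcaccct
UGT1A6: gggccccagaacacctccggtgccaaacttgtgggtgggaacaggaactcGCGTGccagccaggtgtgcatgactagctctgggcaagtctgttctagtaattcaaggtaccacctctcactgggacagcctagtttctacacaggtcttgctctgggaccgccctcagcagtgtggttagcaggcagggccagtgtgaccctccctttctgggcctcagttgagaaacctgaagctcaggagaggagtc
CYP2B6: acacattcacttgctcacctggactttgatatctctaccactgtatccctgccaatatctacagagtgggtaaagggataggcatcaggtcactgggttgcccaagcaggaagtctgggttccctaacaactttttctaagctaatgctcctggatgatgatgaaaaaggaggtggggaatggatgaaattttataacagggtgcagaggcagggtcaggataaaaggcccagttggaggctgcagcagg
CYP1A1 and this UGT1A6 promoter each held 1 copy, while CYP2B6 and the other listed UGT1A6 promoter, which is not printed, held none. GCGTG or its reverse complement CACGC was found in 6 of 47 promoters listed for 37 of the 52 genes and in 32.2% of all 35116 promoters of this length. A match describes the letters in this window only.

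Of the 45 genes, 33 lay above the floor on at least 1 array and 29 on all 3. The other 12 lay at or under it on every array, as did 6815 of all 19775 named genes, so the share among the 45 was no higher than over the array. The 12 were CYP1A1, which oxidises polycyclic hydrocarbons, the drug-metabolising CYP2C8 and CYP2E1, the bile acid synthesis enzymes CYP7A1, CYP7B1 and CYP8B1, the retinoic acid hydroxylase CYP26A1, UGT2B4, the steroid sulfotransferases SULT1E1 and SULT2A1, the acetyltransferase NAT2 and the receptor NR1I3. The highest signal among them was 71.9, for SULT2A1 in CisR cells. By line, 31 genes were above the floor in DoxR, 32 in CisR and 31 in parental cells.

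**Figure D1:**
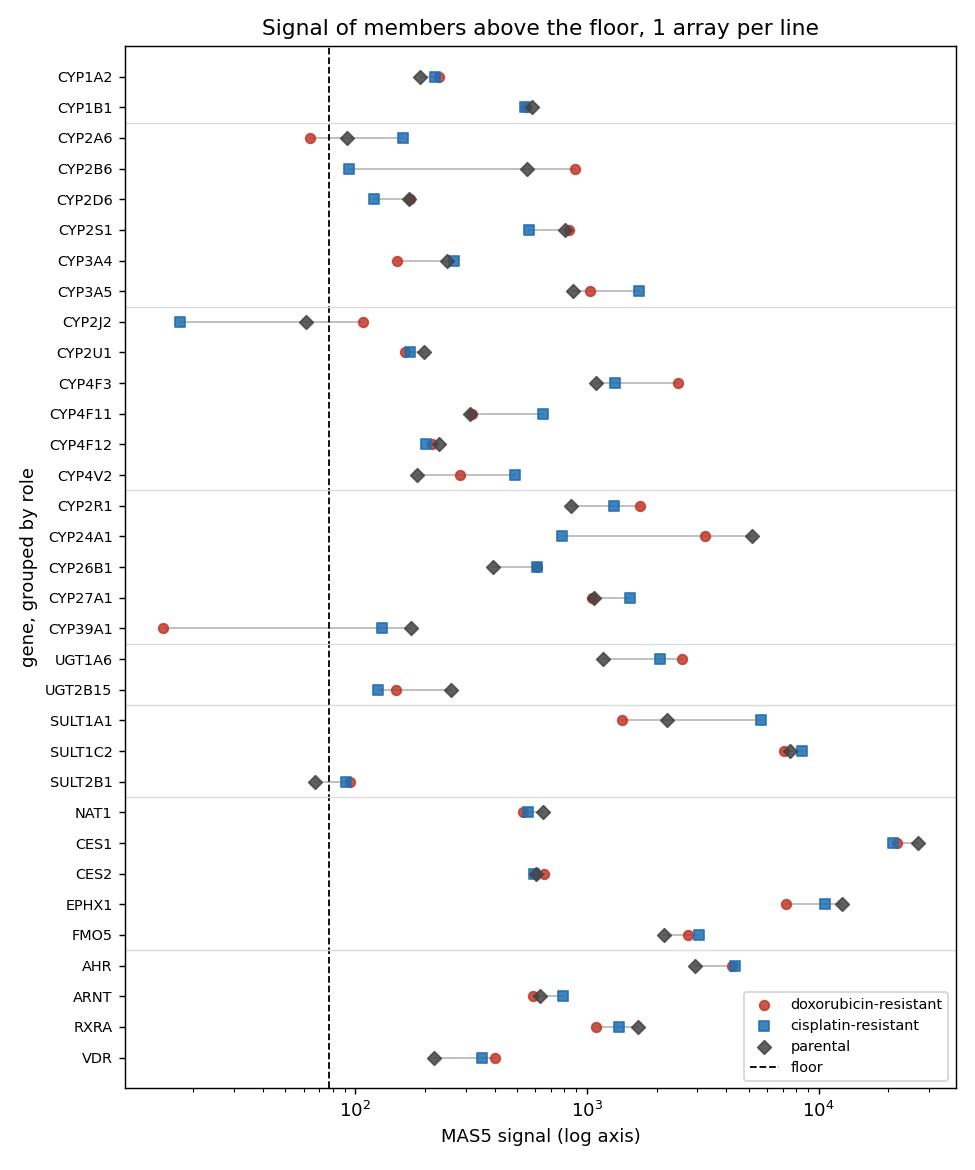
MAS5 signal on a log axis of the 33 genes above the floor on at least 1 array, grouped by role, with 1 point per array (circle, doxorubicin-resistant; square, cisplatin-resistant; diamond, parental) and the floor of 76.9 as a dashed line. The arrays lie furthest apart for CYP2B6, CYP24A1 and SULT1A1 among the genes above the floor on all 3, while levels of different genes cannot be set against each other.

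Against parental, 3 of 33 compared genes differed by 2-fold in DoxR cells, with CYP4F3 and UGT1A6 higher and CYP39A1 lower. Over all 12599 genes compared, 5.75% did so (2.99% higher and 2.75% lower). In CisR cells 6 of 32 genes passed, with SULT1A1, CYP4V2 and CYP4F11 higher and CYP24A1, CYP2B6 and UGT2B15 lower. The share among all 12699 genes was 5.40% (2.82% higher and 2.58% lower). The sublines share parental cells, so their differences from it are not independent. The median log2 difference was 0.02 over the genes in DoxR cells, against 0.00 over all genes, and 0.19 in CisR cells, against 0.02 over all genes.

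**Figure D2:**
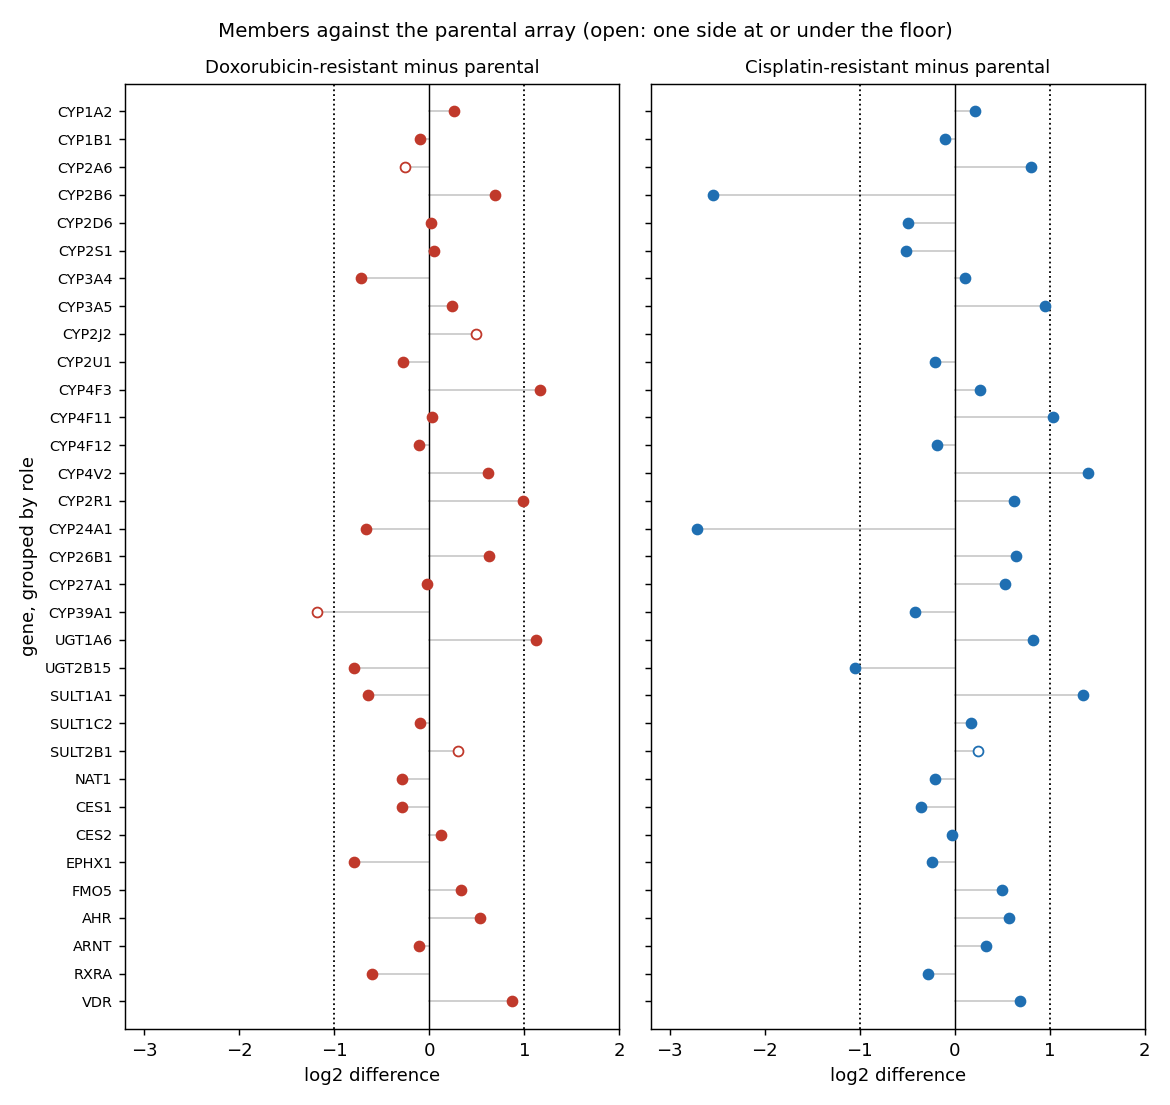
Log2 difference of each gene from the parental array, in the doxorubicin-resistant line (left panel) and the cisplatin-resistant line (right panel), with dotted lines at 2-fold. An open circle marks a value with a side at or under the floor. The points furthest from 0 are CYP24A1 (-2.72) and CYP2B6 (-2.54) in the cisplatin-resistant array.

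Among the CYP1 enzymes, which activate or detoxify polycyclic aromatic compounds, no difference reached 2-fold. CYP1B1 had a signal of 544 in DoxR, 543 in CisR and 582 in parental cells. Its 3 probe sets above the floor gave log2 differences between -0.29 and 0.09 from parental, so the arrays lay close together. CYP1A2 had 229 in DoxR, 221 in CisR and 191 in parental cells, by a probe set of the _x_at kind, which can share signal with related sequences, while its other probe set stayed under the floor on all 3 arrays.

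CYP2B6, which oxidises cyclophosphamide and many other drugs, was nearly at the floor in CisR cells. Its signal was 889 in DoxR, 94.3 in CisR and 550 in parental cells. It was therefore 5.83-fold lower than parental in CisR cells (log2 difference -2.54) and 1.62-fold above it in DoxR cells (0.69), under the call. Its second probe set, of the _x_at kind, gave 238 in DoxR, 39.7 in CisR and 165 in parental cells. Against parental this probe set was lower in CisR cells by at least 2.14-fold, so both probe sets ordered the lines alike. A further probe set is annotated both to CYP2B6 and to its pseudogene CYP2B7P, for neither of which it can be named, and gave 5030 in DoxR, 630 in CisR and 4106 in parental cells, 6.52-fold lower in CisR cells. The pseudogene's share of the signal was not tested.

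The other CYP2 and CYP3 enzymes stayed within 2-fold of parental. CYP2S1, an extrahepatic P450, had 835 in DoxR, 564 in CisR and 805 in parental cells, and CYP2A6, the nicotine oxidase, also on chromosome 19, had 63.7 in DoxR, 161 in CisR and 92.1 in parental cells. The CYP2A6 value rests on a probe set of the _x_at kind, and the 2 other CYP2A6 probe sets above the floor placed DoxR above CisR cells, not below them. CYP2D6, which oxidises codeine and many psychotropic drugs, had 172 in DoxR, 121 in CisR and 171 in parental cells. Its other probe set, under or close to the floor, gave 19.8 in DoxR, 78.1 in CisR and 80.3 in parental cells. A probe set annotated to CYP2D6 and to other genes gave 102 in DoxR, 124 in CisR and 127 in parental cells. Both placed DoxR rather than CisR cells lowest.

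CYP3A4, the main drug-oxidising P450 of adult liver, had 151 in DoxR, 268 in CisR and 248 in parental cells by an _x_at probe set. A second probe set, also _x_at, gave 175 in DoxR, 142 in CisR and 169 in parental cells, so these probe sets did not order the lines alike. The third above the floor, a plain _at probe set, gave 86.2 in DoxR, 103 in CisR and 102 in parental cells, in the order of the first and within 1.20-fold between any of the lines. CYP3A5, a close relative with overlapping substrates, had 1033 in DoxR, 1685 in CisR and 874 in parental cells. It was 1.93-fold above parental in CisR cells, just under the call. The other 2 CYP3A5 probe sets above the floor gave 1.52-fold and 1.46-fold there, so all 3 were highest in CisR cells.

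The P450s of fatty acids and eicosanoids included genes of the CYP4F cluster on chromosome 19 that differed in different sublines. CYP4F3, which hydroxylates leukotriene B4, had a signal of 2463 in DoxR, 1316 in CisR and 1095 in parental cells, 2.25-fold higher than parental in DoxR cells and 1.20-fold in CisR cells. CYP4F11, a fatty acid hydroxylase, had 320 in DoxR, 645 in CisR and 314 in parental cells, 2.05-fold higher than parental in CisR cells and 1.02-fold in DoxR cells. CYP4F12 stayed between 202 and 231 on the 3 arrays. The median log2 difference of the 15 nearest compared genes lay between -0.09 and -0.01 at these loci in both sublines.

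CYP4F3 and CYP4F11 are each represented by 1 probe set. A probe set annotated to both CYP4F2 and CYP4F3 gave 228 in DoxR, 190 in CisR and 198 in parental cells, and so did not show the 2.25-fold difference of CYP4F3. CYP4F2, a vitamin K and fatty acid hydroxylase outside the 52 genes, had 202 in DoxR, 231 in CisR and 83.2 in parental cells, 2.43-fold higher than parental in DoxR and 2.77-fold in CisR cells, from a parental value close to the floor. Its single probe set is of the _x_at kind, and the probe set annotated to both genes did not show these differences either.

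CYP4V2, a fatty acid hydroxylase mutated in Bietti crystalline dystrophy, had 285 in DoxR, 490 in CisR and 185 in parental cells. It was 2.64-fold higher than parental in CisR cells, and 1.54-fold above parental in DoxR cells, under the call. Its other probe set above the floor gave 1.65-fold in DoxR and 2.42-fold in CisR cells. The 15 nearest compared genes on chromosome 4 had a median log2 difference of 0.62 in CisR cells, and with it subtracted CYP4V2 lay at 0.78, under 2-fold. CYP2U1, which acts on long-chain fatty acids, stayed between 164 and 199, and CYP2J2, an arachidonic acid epoxygenase, was above the floor in DoxR cells alone, at 108, against 17.6 in CisR and 61.1 in parental cells.

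Of the P450s of vitamin D, CYP24A1, the mitochondrial hydroxylase that inactivates the hormone and a textbook VDR target, had a signal of 3239 in DoxR, 781 in CisR and 5135 in parental cells. It was 6.58-fold lower than parental in CisR cells (log2 difference -2.72), the largest difference from parental among those with both values above the floor, and 1.59-fold below it in DoxR cells. It has 1 probe set. CYP2R1, the liver enzyme that makes 25-hydroxyvitamin D, had 1691 in DoxR, 1315 in CisR and 853 in parental cells, 1.98-fold above parental in DoxR cells and 1.54-fold in CisR cells. Its second probe set above the floor gave 1.23-fold in DoxR and 1.02-fold in CisR cells.

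VDR itself had 401 in DoxR, 353 in CisR and 219 in parental cells. Another VDR probe set gave 346 in DoxR, 206 in CisR and 243 in parental cells, below parental in CisR cells, so the direction of VDR there depends on the probe set. CYP27B1, which activates vitamin D and is not one of the 52 genes, had 83.8 in DoxR, 110 in CisR and 128 in parental cells.

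Of the bile acid P450s, CYP27A1, the mitochondrial sterol 27-hydroxylase that opens the alternative pathway, had 1052 in DoxR, 1541 in CisR and 1071 in parental cells. CYP39A1, an oxysterol 7-alpha-hydroxylase, was under the floor in DoxR cells, at 14.8, against 130 in CisR and 174 in parental cells, at least 2.27-fold lower than parental. Its 2 other probe sets were at or under the floor in both DoxR and parental cells and gave no check. CYP26B1, which breaks down retinoic acid, had 609 in DoxR, 611 in CisR and 393 in parental cells, which is 1.55-fold above parental in DoxR and 1.56-fold in CisR cells.

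Among the UGTs, UGT1A6, which conjugates small phenols, had 2561 in DoxR, 2076 in CisR and 1176 in parental cells. It was 2.18-fold higher than parental in DoxR cells and 1.76-fold in CisR cells. With the median of the 15 nearest compared genes subtracted, its log2 difference in DoxR cells was 0.98, just under the call. The value rests on 1 probe set, of the _s_at kind, which can match several related transcripts. UGT1A genes share their last exons, and 5 probe sets annotated to several UGT1A genes together, named here for none of them, had log2 differences of 0.26 to 0.67 from parental in DoxR cells and -0.08 to 0.21 in CisR cells.

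UGT2B15, which conjugates androgens, had 150 in DoxR, 126 in CisR and 260 in parental cells. It was 2.07-fold lower than parental in CisR cells and 1.74-fold in DoxR cells. This value rests on an _x_at probe set, and close UGT2B paralogs can share its signal. Another UGT2B15 probe set, also _x_at, gave 38.7 in DoxR, 33.1 in CisR and 73.3 in parental cells. The plain _at probe set gave 2.04 in DoxR, 7.33 in CisR and 13.3 in parental cells. Both lay under the floor on every array and gave no check of the difference.

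SULT1A1, the phenol sulfotransferase that handles paracetamol and many xenobiotic phenols, lay on opposite sides of its parental value in the sublines. Its signal was 1413 in DoxR, 5623 in CisR and 2206 in parental cells, 1.56-fold below parental in DoxR cells and 2.55-fold higher in CisR cells. A second _x_at probe set gave 1085 in DoxR, 5730 in CisR and 1960 in parental cells, so both placed the lines in the same order. The remaining probe set, without this suffix, gave 92.8 in DoxR, 111 in CisR and 146 in parental cells, with CisR cells 1.32-fold below parental. SULT1A2 and SULT1A3 are close paralogs, so the _x_at values cannot be assigned to SULT1A1 alone.

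SULT1C2, which also sulfates phenols, had 7062 in DoxR, 8502 in CisR and 7530 in parental cells, and the largest fold between any of the lines was 1.20. Its dimmest probe set, at 111 in DoxR, 262 in CisR and 203 in parental cells, spread further, with DoxR cells 2.37-fold below CisR cells. SULT2B1, a cholesterol sulfotransferase, had 95.1 in DoxR, 90.9 in CisR and 67.3 in parental cells, close to the floor on every array.

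**Figure D3:**
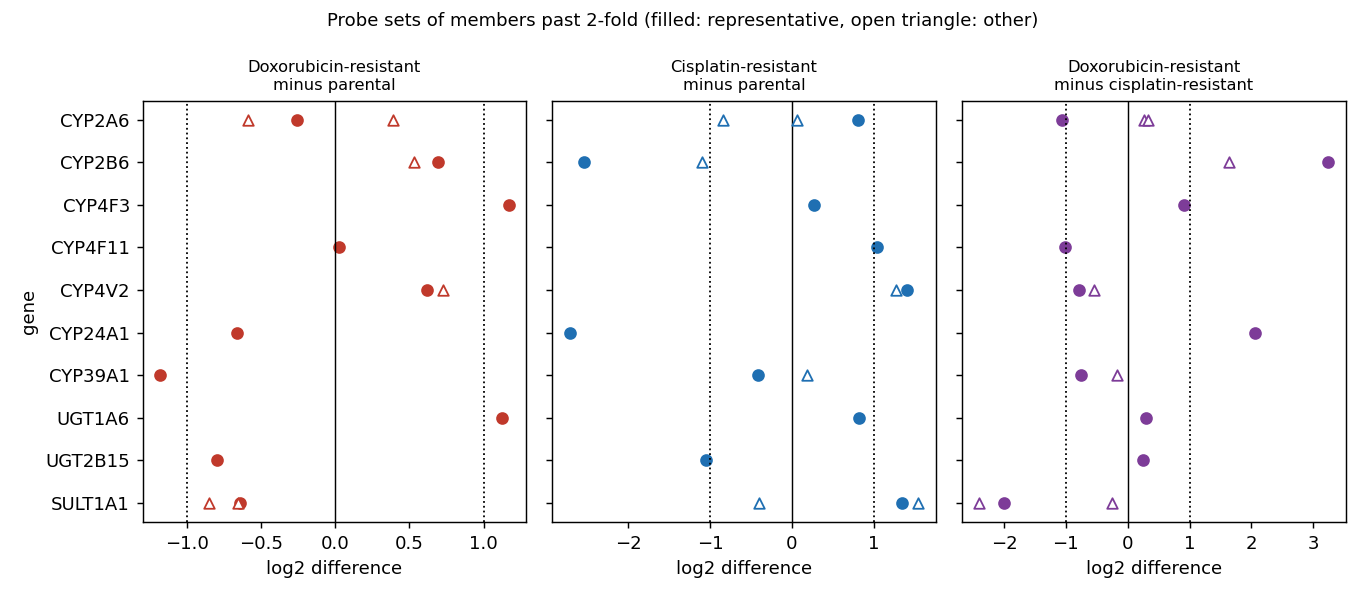
Log2 differences of every probe set above the floor in at least 1 of the arrays compared, for the 10 genes past 2-fold in any comparison, with the representative probe set as a filled circle, the others as open triangles and dotted lines at 2-fold. For CYP2B6 and CYP4V2 the probe sets point the same way in the cisplatin-resistant line, whereas for SULT1A1 1 of its 3 probe sets points the other way and CYP2A6 has probe sets of both signs.

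Of the acetyltransferases, esterases, epoxide hydrolase and flavin monooxygenase, 0 of 5 compared genes passed 2-fold in either subline. Over all genes 5.75% did so in DoxR and 5.40% in CisR cells, so 0 among 5 genes lies near these shares. CES1, the main liver carboxylesterase, had 21878 in DoxR, 20861 in CisR and 26768 in parental cells. CES2, which hydrolyses irinotecan, had 653 in DoxR, 591 in CisR and 602 in parental cells. EPHX1, microsomal epoxide hydrolase, had 7248 in DoxR, 10624 in CisR and 12588 in parental cells, 1.74-fold below parental in DoxR cells, where the 15 nearest compared genes had a median of -0.36. FMO5, a flavin-containing monooxygenase, had 2719 in DoxR, 3047 in CisR and 2156 in parental cells, and the arylamine acetyltransferase NAT1 had 528 in DoxR, 556 in CisR and 644 in parental cells.

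None of the 4 receptors and partners compared passed 2-fold. This too lies near the shares over all genes, 5.75% in DoxR and 5.40% in CisR cells. AHR had 4233 in DoxR, 4350 in CisR and 2922 in parental cells, 1.45-fold above parental in DoxR and 1.49-fold in CisR cells. The 15 nearest compared genes on chromosome 7 had medians of 0.30 in DoxR and 0.45 in CisR cells, and with them subtracted AHR lay at 0.23 in DoxR and 0.12 in CisR cells. CYP1A1, which AHR switches on in many cells, was at 12.2 in DoxR, 51.8 in CisR and 32.4 in parental cells, under the floor throughout. ARNT had 582 in DoxR, 788 in CisR and 627 in parental cells. Another ARNT probe set gave 266 in DoxR, 420 in CisR and 216 in parental cells, 1.94-fold above parental in CisR cells. A further one placed parental cells highest, at 105 in DoxR, 143 in CisR and 198 in parental cells. The ARNT probe sets above the floor thus did not all order the lines alike. RXRA had 1095 in DoxR, 1371 in CisR and 1665 in parental cells by its brighter probe set and 425 in DoxR, 458 in CisR and 312 in parental cells by the other, which order the sublines and the parental line in opposite ways.

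Set directly against each other, the sublines differed by 2-fold in 5 of 33 genes, against 6.37% of all 12593 genes (3.05% higher and 3.32% lower in DoxR cells). CYP2B6 was 9.44-fold and CYP24A1 4.15-fold higher in DoxR cells. SULT1A1 was 3.98-fold, CYP4F11 2.02-fold and CYP2A6 at least 2.10-fold lower there. For CYP2B6, CYP24A1, SULT1A1 and CYP4F11, CisR cells also stood further from parental than DoxR cells did, while the DoxR value of CYP2A6 lay under the floor and could not be ranked.

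The related genes outside the 52 were described from lists of 6 kinds, with no test. Over all genes the share past 2-fold from parental was 5.75% in DoxR and 5.40% in CisR cells. Of 14 P450 electron donors and haem synthesis genes compared, 1 was higher in DoxR cells and 1 lower in CisR cells, with medians of 0.12 in DoxR and 0.10 in CisR cells. POR, the reductase that feeds many microsomal P450s, had 4370 in DoxR, 1560 in CisR and 1998 in parental cells, 2.19-fold higher than parental in DoxR cells. Its 15 nearest compared genes on chromosome 7 had a median of 0.68 there, and with it subtracted POR lay at 0.45. FECH, which inserts iron into haem, was 2.06-fold lower in CisR cells, where its neighbours on chromosome 18 had a median of -0.81.

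Of the other P450s, PTGIS, prostacyclin synthase, had 1116 in DoxR, 88.5 in CisR and 247 in parental cells, 4.53-fold higher than parental in DoxR and 2.79-fold lower in CisR cells. With CYP4F2, this made 2 higher of 9 compared in DoxR cells, and 1 higher and 1 lower of 10 in CisR cells, with medians of -0.21 in DoxR and -0.23 in CisR cells. Among the other UGTs, sulfotransferases and cofactor enzymes, 1 of 14 was higher in DoxR cells and 0 of 12 passed in CisR cells, with medians of 0.21 in DoxR and -0.04 in CisR cells. The higher gene was UGT2A3, at 201 in DoxR cells against 49.2 in parental cells, at least 2.61-fold. UGDH, which makes the glucuronide donor, differed by -0.04 in DoxR and -0.28 in CisR cells, and PAPSS2, which makes the sulfate donor, by 0.78 in DoxR and 0.15 in CisR cells.

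Of the AHR partners and targets, ALDH3A1, an aldehyde dehydrogenase, was the single gene of 9 past 2-fold from parental, at 11266 in DoxR, 30222 in CisR and 9800 in parental cells, 3.08-fold higher than parental in CisR cells. AHRR, the repressor of AHR and itself an AHR target, had 211 in DoxR, 83.0 in CisR and 127 in parental cells, within 2-fold of parental in both but 2.55-fold higher in DoxR than in CisR cells. The AHR target NQO1 differed from parental by 0.02 in DoxR and -0.03 in CisR cells, and TIPARP by 0.01 in DoxR and -0.12 in CisR cells. The list medians were 0.01 in DoxR and -0.04 in CisR cells.

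Of 22 other hydrolases, oxidases and transferases compared in each subline, 1 was higher in DoxR cells and 2 were higher and 2 lower in CisR cells, with medians of 0.13 in DoxR and -0.09 in CisR cells. The first was EPHX2, soluble epoxide hydrolase, at least 2.07-fold. In CisR cells GSTA4, a glutathione transferase for lipid aldehydes, was 2.19-fold and the nicotinamide methyltransferase NNMT at least 12.3-fold higher, while the esterase AADAC was 2.75-fold and the aldehyde oxidase AOX1 2.03-fold lower.

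Among regulators of P450 genes, 3 of 22 were higher in DoxR cells. These were PROX1, a hepatic homeobox repressor, at 3.37-fold, NR5A2, a nuclear receptor of bile acid synthesis, at 2.35-fold, and NR0B2, the repressor known as SHP, at least 2.04-fold. In CisR cells 1 of 21 was higher, PROX1 at 2.40-fold, and 1 lower, CEBPA, a hepatocyte differentiation factor, at 3.04-fold. CEBPA had 2765 in DoxR, 1382 in CisR and 4200 in parental cells. The list medians were 0.13 in DoxR and 0.12 in CisR cells.

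Hepatocyte markers, listed for the labelled cell type, also differed between the lines. In parental cells 11 of 15 were above the floor, including albumin (ALB) and alpha-fetoprotein (AFP) at 1545 and 508. The others, APOA1, APOA2, APOB and HP, were under it there, at 73.0, 28.7, 42.3 and 36.8. ALB itself was under the floor in CisR cells, at 3.17. The summed signal of the 15 markers was 8811 in DoxR, 3330 in CisR and 17504 in parental cells. The largest parental values in that sum were TF, at 404 in DoxR, 234 in CisR and 4925 in parental cells, and APOH, at 2269, 1063 and 4297 in turn. Of 12 markers compared, 2 were higher and 4 lower in DoxR cells, and 1 was higher and 10 lower in CisR cells, with medians of -0.79 in DoxR and -1.93 in CisR cells. Over all genes compared, 2.99% were higher and 2.75% lower in DoxR cells, and 2.82% higher and 2.58% lower in CisR cells. The markers higher in DoxR cells were ALB, at 2.02-fold, and APOB, at least 10.6-fold. APOB was also the 1 higher in CisR cells, at least 5.01-fold, while ALB was at least 20.1-fold lower there. The part of the hepatocyte markers in the differences of CYP2B6, CYP24A1 and UGT2B15 was not tested. Epithelial markers summed to 76881 in DoxR, 74228 in CisR and 62435 in parental cells. Of 6 leukocyte markers 1 was above the floor in DoxR, 1 in CisR and 0 in parental cells, and of 5 endothelial markers 2 were on each array. Fibroblast markers above the floor numbered 2 of 8 in DoxR, 4 in CisR and 2 in parental cells, with a summed signal of 1550 in DoxR, 3395 in CisR and 806 in parental cells. That sum was carried largely by LUM, a matrix proteoglycan, at 1167 in DoxR, 2632 in CisR and 258 in parental cells, with COL1A1 next at 242 in DoxR, 511 in CisR and 309 in parental cells; the other 6 lay under or close to the floor on every array.

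**Figure D4:**
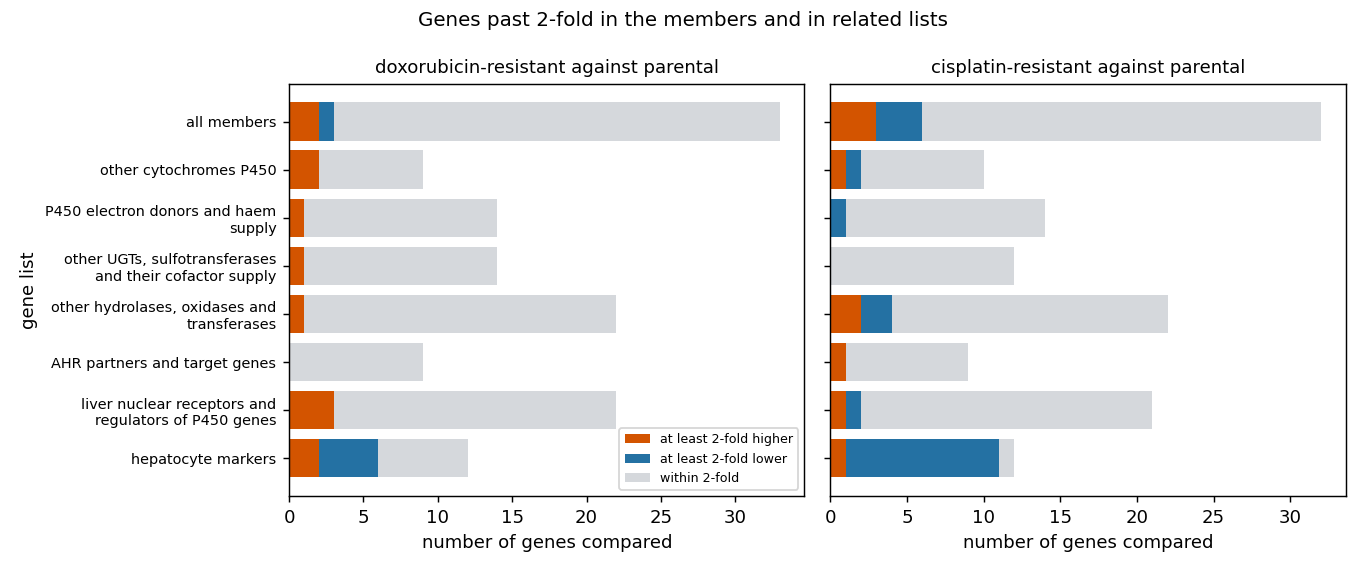
Number of genes compared in the 52-gene set, in 6 related lists and in the hepatocyte markers, split into genes at least 2-fold higher, at least 2-fold lower and within 2-fold of parental, for the doxorubicin-resistant line (left panel) and the cisplatin-resistant line (right panel). The hepatocyte markers have 10 of 12 genes lower in the cisplatin-resistant line, against 3 of 32 in the 52-gene set. Over all genes compared, 2.58% were lower there. The members and lists were chosen with earlier results of these data known.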

How the data were processed

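Total RNA of 3 cell lines was hybridised to 1 array each, and lines were assigned to groups from the labels. The deposited values are intensity (signal) values per probe set on a linear scale, computed by the authors with MAS5 per the submitters' processing notes, with no version named there. The mean of each array, after trimming 2% of values at either end, was 500.1, the form that global scaling gives. Detection calls were not used here. Of 54675 probe sets, 41097 had 1 gene symbol in the platform annotation, of which 41043 matched RefSeq (GRCh38.p14) through Entrez identifiers, 1801 had several symbols and gave no gene a name, and the other 11777, controls included, were not used.

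The 52 genes had 101 probe sets of 1 symbol, and 10 more were annotated to a member and to other genes. Python 3.11.15, numpy 2.4.6 and pandas 2.3.3 were used. Arrays had median signals of 73.3 (doxorubicin-resistant), 79.2 (cisplatin-resistant) and 78.5 (parental). With 1 array per group no p-value or SE was computed. The steps were tested on simulated arrays, with changes larger than 2-fold planted in genes well above the floor. Calls near 2-fold or near the floor were not covered by that test. The members and lists were chosen with earlier results of these data known. Values on every array are given for members past 2-fold and for the 12 with the highest mean signal, and for further members chosen after their values were seen. Of the related lists, genes above the floor on both arrays and past 2-fold were named, at most 4 per list and comparison, and POR whatever its value; other related genes (CYP27B1, AHRR, UGDH, PAPSS2, NQO1, TIPARP, and those limited by the floor) were likewise chosen afterwards. Alternatives were the floor, the choice of probe set, the scaling, subtraction of the median of the 15 nearest compared genes on the chromosome, and a 1.5-fold threshold.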

Additional observations from a re-analysis of the deposited data

Results flagged for a closer look

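3 genes lay on opposite sides of the parental value in the sublines and differed by 2-fold between them; the difference was not tested, since each line has 1 array. CYP2B6 was above parental in the doxorubicin-resistant and below it in the cisplatin-resistant line, with a log2 difference of 3.24 between these lines. SULT1A1 was the other way round, at -1.99, but at -0.25 by its plain _at probe set. CYP2A6 was likewise lower in the doxorubicin-resistant line, at -1.07, with its value there at the floor. By another probe set, of the _f_at kind, the difference was 0.26, with the cisplatin-resistant value at the floor.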

How the results depend on the processing

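No paired analysis was possible because each line has 1 array. Of 14 gene differences past 2-fold over the 3 comparisons, 6 stayed past it under every alternative that gave a value and 8 did not. Among the 6, CYP4F3 and CYP24A1 have 1 probe set, so the choice of probe set could not move them. CYP39A1 and UGT2B15 gave no value with the floor at the 75th percentile or with plain _at probe sets. With probe sets of the plain _at kind alone, SULT1A1 lay at -0.40 in the cisplatin-resistant line against parental, turning its direction, and at -0.25 between the sublines, under 2-fold. Between the sublines CYP2A6 turned to 0.26 with its median over probe sets. It had the same value with its 1 probe set without an _x_at, _s_at or _a_at suffix, which is of the _f_at kind. UGT1A6 in the doxorubicin-resistant line (0.98) and CYP4V2 in the cisplatin-resistant line (0.78) lay under 2-fold with the neighbours' median subtracted. CYP2B6, CYP4F11 and CYP4V2 in the cisplatin-resistant line lay under 2-fold with the floor at the 75th percentile of all values (signal 440), at -0.32, 0.55 and 0.16, since the higher floor raises their dimmer values. CYP4F11 between the sublines lay under 2-fold with that floor (-0.55) and with quantile normalization (-0.99). CYP39A1 in the doxorubicin-resistant line, a bound, was -3.17 with the floor at the 25th percentile and -3.55 without a floor, beyond CYP24A1 in the cisplatin-resistant line. Of 33 members compared with parental in the doxorubicin-resistant line, 3 were past 2-fold. It was 1 of 23 with plain probe sets and 14 of 33 at 1.5-fold. In the cisplatin-resistant line 6 of 32 were past 2-fold, but 2 of 22 with the higher floor and 12 of 32 at 1.5-fold. Between the sublines 5 of 33 were. With the floor at the 25th percentile it was 9 of 41, and 3 of 22 with it at the 75th. It was 3 of 24 with plain probe sets and 10 of 33 at 1.5-fold. The shares over all genes moved too: they were, for the doxorubicin-resistant line against parental, the cisplatin-resistant line against parental and the doxorubicin-resistant against the cisplatin-resistant line in turn, 12.2%, 11.8% and 12.8% with the floor at the 25th percentile, 3.13%, 2.76% and 3.82% with it at the 75th, 9.20%, 8.84% and 10.0% without a floor, and 17.7%, 17.6% and 19.1% at 1.5-fold. With plain probe sets these shares were 5.83%, 5.51% and 6.36%, in the same order. Quantile normalization moved the median of all genes by less than 0.1. The other scaling alternative subtracts that median, which fixes it in advance, so its shift says nothing about the calls. Signals near the floor limit CYP39A1, CYP2A6, UGT2B15 and SULT2B1.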
